A study of Mus musculus with 2 samples.

Results

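The genes described here encode the protein subunits of the mitochondrial ribosome, as measured in whole mouse lungs at embryonic day 18. They were chosen by name: every gene with a probe set whose only symbol in the platform's annotation began with Mrpl or Mrps and a digit, which gave 76 genes (156 probe sets) of the 18193 genes on the array. The mouse RefSeq annotation lists 78 protein-coding genes with such symbols. Of the 76, 47 carry the letter l of the large subunit and 29 the letter s of the small subunit. RNA came from pooled lungs, and the wildtype pool and the pool homozygous for Nmyc9a had 1 Affymetrix array each. Nmyc9a is a hypomorphic allele of Mycn, which encodes the transcription factor N-Myc. The strain, the sex and how many lungs entered a pool are not given in the labels.

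Mitochondria keep a ribosome of their own, which translates the few respiratory chain and ATP synthase subunits encoded by mitochondrial DNA. Its RNAs come from that DNA, but all of its proteins are encoded in the nucleus, made in the cytosol and imported. The small subunit binds the messenger RNA and decodes it, and the large subunit joins amino acids and passes the new chain through an exit tunnel to the inner membrane. Many subunits descend from bacterial ribosomal proteins, and others are found only in mitochondrial ribosomes. Genes of mitochondria, among them ribosomal and translation genes, are known targets of Myc proteins in growing cells, and the fetal lung epithelium depends on Mycn for its growth.

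Each probe set has a linear signal intensity on each array. A factor of 0.977, applied to the array labelled Nmyc9a, brought the median log2 ratio of probe sets above the floor to 0. The floor was the 40th percentile of all signals, 49.3, and values below it were raised to it for ratios only. Signals are printed after scaling and before the floor, with wildtype first, and each gene is represented by its brightest probe set. A gene was measured when the mean of its signals reached the floor, and a negative log2 ratio means less signal in the Nmyc9a pool. Since each group is 1 array, differences have no replicate check and no p-value, and genes were counted by size, at 1.5-fold (0.58 on the log2 scale). The number of arrays limits the precision. The error that these data offer is the spread between probe sets of the same gene, with a pooled SD of 0.40 (log2 scale, 5671 genes), which leaves out the spread between animals.

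The lung label was borne out by its markers: all 13 lung markers were measured, with surfactant protein C (Sftpc) at 8639 and 8966 and Sftpb at 5203 and 5202. Mycn could not check the genotype. Its brightest probe set read 66.3 and 84.8 and the other measured one 51.1 and 85.4, close to the floor on the wildtype array, so signal was not lower under the Nmyc9a label, and whether these probes fall within the changed stretch of Mycn is unknown. The median log2 ratio of all 12600 measured genes was -0.09. In whole-lung RNA, fewer cells of a type and less RNA per cell cannot be told apart.

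Transcripts of the mitochondrial ribosome were lower on the array labelled Nmyc9a across nearly the whole set. Of 75 measured members, 69 had a log2 ratio below 0, against 58.7% of all measured genes. At the 1.5-fold size 25 members (33.3%) were lower, where 9.7% of all measured genes were, and 1 member (1.33%) was higher, where 6.33% were. The median member stood at -0.49 (1.40-fold lower), or 0.40 below the median of all measured genes. The signals of the 75 members summed to 23115 in wildtype lungs and 16950 under the Nmyc9a label. At 2-fold, Mrpl22 was the 1 member lower, where 1.38% of all measured genes were, and none was higher, where 1.29% were.

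Members lay close together as well as low. The middle 50% of them ran from -0.62 to -0.34, a width of 0.28, against a width of 0.53 for all measured genes. Lists described below were similarly close together. Their middle 50% ran from -0.64 to -0.33 for nuclear-encoded respiratory chain and ATP synthase genes and from -0.39 to -0.13 for cytosolic ribosomal proteins. For mitochondrial translation factors it ran from -0.46 to -0.34. Differences of this size in a single gene are near the error of a probe set: 46 members lay below 0 by more than the SD of 0.40 between probe sets, as did 20.7% of all measured genes, 1 member lay above 0 by as much, and 28 were within it. The member just inside the 1.5-fold size was Mrps16 at -0.59 and the one just outside was Mrps22 at -0.58. Mrps18b was not measured, with 56.1 and 22.1 and a mean below the floor. Mrps27 passed only through its wildtype signal, so its place among the lower members partly follows from the filter. With no filter on the mean, but the floor kept, 70 of 76 members lay below 0, 6 lay above and 25 were 1.5-fold lower. Of all 18193 genes, 7681 (42.2%) lay below 0, 5619 lay above and 6.75% were 1.5-fold lower. The rest of all genes stood at 0, as does every gene under the floor on both arrays, which lowers the 42.2%.

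**Figure D1:**
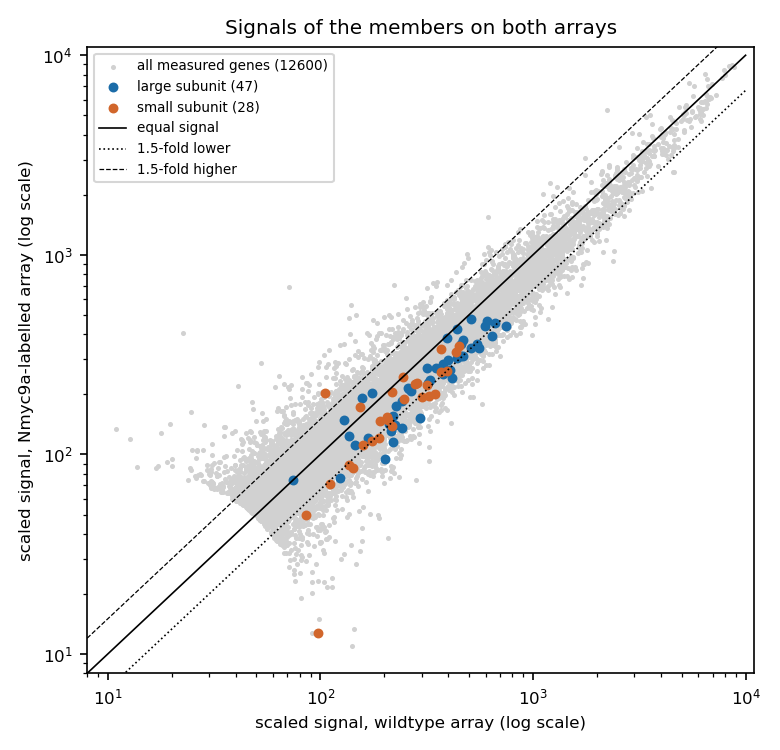
Scaled signal of each measured gene, wildtype on the x axis and the array labelled Nmyc9a on the y axis (both log scales), with all 12600 measured genes in grey, 47 large subunit genes in blue and 28 small subunit genes in orange. Most members lie below the line of equal signal and many lie near the dotted line of a 1.5-fold lower signal; the low orange point is Mrps27, at 97.5 and 12.8.

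Markers of other states and tissues also differed between the arrays. Of 26 measured proliferation genes, 21 were at least 1.5-fold lower, where 9.7% of all measured genes were. Bub1 and Bub1b passed only through their wildtype signal, so their place among the lower ones partly follows from the filter and their ratios are upper bounds. The list had a summed signal of 9852 and 5539 and a median of -0.89. After the floor it ran from Mcm5 (-1.80) and Kif23 (-1.35) to Cenpf (-0.13) and Tpx2 (0.47). Of 8 measured liver markers, 6 were at least 1.5-fold higher, where 6.33% of all measured genes were, with sums of 446 and 1368. Alb (139.5 and 558) and Afp were highest, and Hpx (0.32 or higher) and Apoa2 (0.38) lowest after the floor. Apoa1, Ttr, Fga, Fgg and Hpx lay below the floor in wildtype and passed only through the array labelled Nmyc9a. Their ratios are lower bounds, and the count of higher markers partly follows from the filter. Of 6 measured skeletal muscle markers 2 were higher, Acta1 (2.15 or higher) and Mylpf (1.46), with Myod1 (0.14) and Casq1 (0.37) lowest and sums of 478.5 and 892. Acta1 and Mybpc1 also passed only through the array labelled Nmyc9a. Fgb among the liver markers and Tnni2 and Myh8 among those of skeletal muscle lay below the floor on both arrays. Ahsg (9.1 and 82.4), Tnnt3 (23.5 and 52.5) and Myh3 (6.1 and 55.2) passed it under the Nmyc9a label only, and their means did not reach it. The 10 heart muscle markers summed to 3992 and 3955, from Tnni3 (-0.58) and Myl4 (-0.42) to Myh6 (0.66) and Ryr2 (0.71). Of the brown fat markers Ucp1, Cidea and Cox8b lay below the floor on both arrays, and Elovl3 (31.0 and 55.2) had a mean below it. Cox7a1 (0.25) and Prdm16 (0.38) were measured. The lung markers summed to 41923 and 40069, with Sftpd (-0.83) and Aqp5 (-0.71) lowest and Cdh5 (0.24) and Scgb1a1 (0.54) highest. The 6 measured erythroid markers summed to 5838 and 4433, with Trim10 (-1.35) and Slc4a1 (-0.77) at least 1.5-fold lower and Rhd (0.07) and Hbb-y (0.10) highest. Of the 10 macrophage and neutrophil markers 8 were below 0 and 3 at least 1.5-fold lower, Lcn2 (1266 and 635), S100a9 (-0.92) and Mrc1 (-0.70), with a median of -0.26. Their sums, 14867 and 15350, are carried by Lyz1 (0.30) and Lyz2 (0.32). The part of the proliferation, liver, muscle, erythroid and myeloid genes in the lower mitochondrial ribosomal signals was not tested.

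Promoter sequences are shown for members that stood among the lower ones and that hold sequence elements linked to mitochondrial genes or to Myc. They are RefSeq windows of GRCm38.p6, from 250 bases before to 50 bases after an annotated start, printed 5′ to 3′ on the strand of the gene. Capitals mark matches to 4 motifs searched on both strands: the E-box CACGTG that Myc proteins bind, CCGGAAG of Ets factors such as Gabpa, AAGATGGCG of Yy1, and the palindrome of Nrf1, whose letters are the capitals in the Mrpl32 window. No match to one motif overlapped a match to another in the members' windows. The windows are Mrpl22 at chr11:58171414-58171713 (plus strand), Mrps27 at chr13:99344536-99344835 (plus), Mrps11 at chr7:78782881-78783180 (plus), Mrps18c at chr5:100798509-100798808 (plus) and Mrpl32 at chr13:14612988-14613287 (minus). The Mrps11 window also holds the start of Mrpl46 on the opposite strand.
Mrpl22: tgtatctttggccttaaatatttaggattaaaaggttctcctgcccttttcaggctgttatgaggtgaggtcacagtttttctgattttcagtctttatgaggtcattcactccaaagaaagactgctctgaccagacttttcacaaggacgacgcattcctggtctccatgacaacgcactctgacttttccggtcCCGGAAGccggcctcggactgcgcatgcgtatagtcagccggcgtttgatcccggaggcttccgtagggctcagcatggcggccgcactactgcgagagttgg
Mrps27: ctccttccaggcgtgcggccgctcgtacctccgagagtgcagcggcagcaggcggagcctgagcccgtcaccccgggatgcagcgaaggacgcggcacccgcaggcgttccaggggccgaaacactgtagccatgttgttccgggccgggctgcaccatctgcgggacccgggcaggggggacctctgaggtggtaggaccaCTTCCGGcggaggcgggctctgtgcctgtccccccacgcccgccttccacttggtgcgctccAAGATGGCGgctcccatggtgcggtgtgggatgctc
Mrps11: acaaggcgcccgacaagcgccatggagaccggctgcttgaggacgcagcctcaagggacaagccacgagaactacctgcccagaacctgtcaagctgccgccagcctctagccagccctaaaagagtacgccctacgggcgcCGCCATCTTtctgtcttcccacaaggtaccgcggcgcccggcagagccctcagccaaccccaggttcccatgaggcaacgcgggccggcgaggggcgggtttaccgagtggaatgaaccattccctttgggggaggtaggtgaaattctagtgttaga
Mrps18c: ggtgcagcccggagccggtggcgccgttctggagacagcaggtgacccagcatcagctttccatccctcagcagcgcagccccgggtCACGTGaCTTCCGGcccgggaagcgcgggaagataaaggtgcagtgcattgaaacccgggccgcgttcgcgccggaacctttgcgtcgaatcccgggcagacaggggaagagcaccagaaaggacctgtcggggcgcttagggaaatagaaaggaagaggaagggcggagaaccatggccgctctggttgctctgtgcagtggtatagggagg
Mrpl32: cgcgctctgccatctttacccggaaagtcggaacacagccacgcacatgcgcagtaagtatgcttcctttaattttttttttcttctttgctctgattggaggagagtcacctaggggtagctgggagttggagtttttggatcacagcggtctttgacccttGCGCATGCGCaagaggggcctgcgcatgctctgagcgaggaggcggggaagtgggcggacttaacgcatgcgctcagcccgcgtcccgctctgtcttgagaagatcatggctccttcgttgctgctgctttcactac

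Promoter windows were found for 67 of the 76 members. The Ets motif stood in the windows of 25 of these 67 genes (37.3%), against 8.86% of all 32851 windows and 18.7% of 9758 measured protein-coding genes. The Yy1 motif stood in 8 (11.9%), against 1.40% of all windows and 3.36% of those genes, and the Nrf1 motif in 3 (4.48%), against 0.971% and 2.21%. The E-box stood in 5 (7.46%), namely Mrps18c, Mrpl20, Mrpl2, Mrpl36 and Mrpl37, against 7.15% of all windows and 11.3% of those genes. A gene can have several windows, so the shares of all windows compare with shares of the members' 73 windows. Those were 34.2% for Ets, 11.0% for Yy1, 4.11% for Nrf1 and 9.59% for the E-box. The median log2 ratio was -0.51 for 24 measured members with the Ets motif and -0.49 for 42 without it. For the E-box the medians were -0.48 in 5 members with it and -0.51 in 61 without it, for Nrf1 -0.57 in 3 and -0.50 in 63, and for Yy1 -0.55 in 8 and -0.49 in 58. These differences were not tested. A match is a description of these letters and not a binding site.

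Large and small subunit genes were compared by symbol first. Of 47 measured Mrpl genes, 14 were at least 1.5-fold lower, none was higher and 44 were below 0 (median -0.48). Of 28 measured Mrps genes, 11 were lower, 1 was higher and 25 were below 0 (median -0.51). The difference of the medians, large minus small, was 0.03, and it ran from -0.05 to 0.12 under the alternatives tried. The letter does not always give the place in the assembled particle. Mrps18a and Mrps30 sit in the large subunit, and Mrps36 is now known as a subunit of the 2-oxoglutarate dehydrogenase complex. With these moved, the difference was 0.02.

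**Figure D2:**
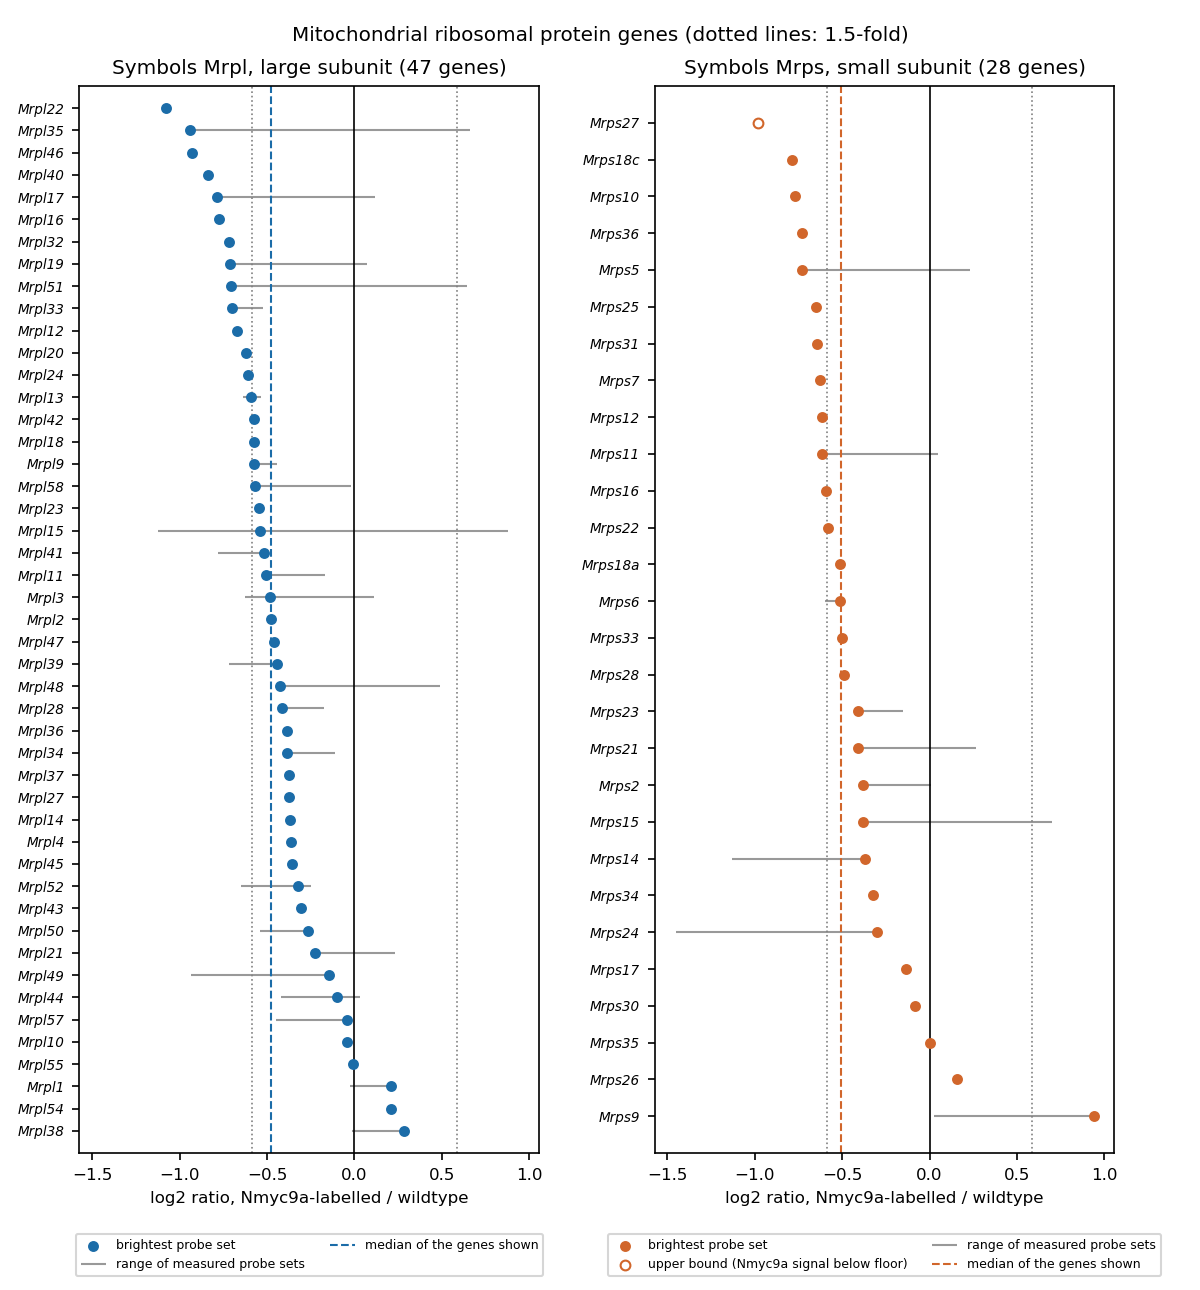
Log2 ratio of each of the 75 measured members (x axis, array labelled Nmyc9a over wildtype), large subunit symbols on the left and small subunit symbols on the right, ordered by value. Points are the brightest probe set, grey lines the range over a gene's measured probe sets, dashed lines the medians of -0.48 and -0.51, and dotted lines 1.5-fold; the open point, Mrps27, is an upper bound.

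In the large subunit, proteins of the exit tunnel and its rim ranged from 2-fold lower to nearly level. Mrpl22, which lines the tunnel, read 201 and 95.3 and was 2.11-fold lower, the lowest ratio apart from Mrps27, which has only a bound. Mrpl24, at the tunnel exit, read 547 and 358 (1.53-fold lower) and Mrpl17, also near the exit, 416 and 241 (1.73-fold lower). Other proteins of the tunnel and its exit were under the 1.5-fold size. Mrpl23 read 666 and 456 (-0.54), and Mrpl4, part of the tunnel wall, 349 and 271 (-0.36). Mrpl45, which holds the ribosome at the inner membrane, read 266 and 208 (-0.36). Mrpl44, which has a fold of the RNase III family and is mutated in a human cardiomyopathy, was almost level at 511 and 477 (-0.10). Its 4 measured probe sets ran from -0.42 to 0.03.

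Of 4 proteins around the site of peptide bond formation, Mrpl16 was past the size rule. It read 748 and 438, 1.71-fold lower. Mrpl2 read 327 and 235 (-0.48), Mrpl3 320 and 228 (-0.49) and Mrpl27, whose bacterial counterpart reaches into that site, 606 and 467 (-0.37). The stalk, which recruits the translation factors, was uneven among its members. Mrpl12, the stalk protein that is also reported to bind mitochondrial RNA polymerase, read 224 and 140.4 (-0.67). Mrpl11, at the stalk base, read 220.5 and 155 (-0.51), while Mrpl10, which anchors Mrpl12, read 439 and 427 (-0.04). The gap between Mrpl12 and Mrpl10 rests on 1 probe set each.

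The short basic proteins of the large subunit ranged from -0.94 to -0.38. Mrpl35 read 293 and 153 (1.92-fold lower) by its brightest probe set, but 47.3 and 77.9 by its other one. Mrpl32, which a mitochondrial protease trims before it joins the ribosome, read 641 and 390.0 and was 1.64-fold lower. Mrpl33 read 124 and 76.5 (1.62-fold lower), and a second probe set of it stood at -0.52. Mrpl34, at 227 and 174 (-0.38), and Mrpl36, at 242 and 185 (-0.39), were under the size rule. Among further proteins with bacterial counterparts, Mrpl19 (215 and 131), Mrpl20 (406 and 265) and Mrpl13 (468 and 309.7) were 1.64-, 1.54- and 1.51-fold lower. Mrpl9, Mrpl14, Mrpl15, Mrpl18, Mrpl21, Mrpl28, Mrpl47 and Mrpl55 lay between -0.57 and -0.01. Mrpl1, part of the stalk through which spent transfer RNA leaves, was on the other side, at 129 and 149 (0.21).

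The large subunit also holds proteins with no bacterial counterpart. Of 20 such genes (Mrps30 included, and Mrps18a, whose place in the large subunit has no bacterial equivalent), 3 were 1.5-fold lower, against 11 of 29 with a bacterial counterpart, and the medians were -0.37 and -0.54. Mrpl46 read 218.5 and 115 (1.90-fold lower) and Mrpl40, whose human gene lies in the region lost in the 22q11 deletion syndrome, 243 and 136 (1.79-fold lower). Mrpl51 read 557 and 341 (1.63-fold lower), but its other 2 probe sets stood at 0.17 and 0.65. At the level end, Mrpl57 read 396 and 384 (-0.04) by its brightest probe set and Mrps30 read 218 and 206 (-0.08). The other probe set of Mrpl57 read 129 and 94.8 (-0.45). Mrpl54, at 175 and 202 (0.21), and Mrpl38, at 157 and 192 (0.28), had more signal on the array labelled Nmyc9a. Mrpl58, a hydrolase that frees stalled chains, read 509.5 and 343 (-0.57). Over both subunits, members with a bacterial counterpart stood 0.10 lower at the median than those without (-0.51 over 45 and -0.41 over 29), and this difference was not tested.

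In the small subunit, the lowest ratio was a bound. Mrps27, a pentatricopeptide repeat protein that binds RNA, read 97.5 and 12.8 and was at least 1.98-fold lower. Mrps18c read 346 and 200.3 (1.73-fold lower), and its relative in the large subunit, Mrps18a, 368 and 258 (-0.51). The third gene of that family, Mrps18b, was not measured. Mrps12, the protein of the decoding site, read 299 and 195 and was 1.53-fold lower. Head proteins were mixed in size. Mrps10 read 85.2 and 49.9 (1.71-fold lower) and Mrps7 188 and 122 (1.55-fold lower). Mrps14 read 449 and 348 (-0.37) by its brightest probe set, but 184 and 84.1 (-1.13) by its other measured one. Mrps11, of the platform, read 136 and 89.0 (1.53-fold lower), and Mrps16 392.5 and 261 (1.51-fold lower).

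Small subunit proteins found only in mitochondria had a median of -0.50 over 9 measured genes, the same as the median of -0.50 over 16 with bacterial counterparts. Mrps25 read 111 and 70.8 (1.57-fold lower) and Mrps31 216 and 138 (1.56-fold lower). Mrps22, mutated in a human mitochondrial disease, read 175.5 and 117 (-0.58), and Mrps34, mutated in Leigh syndrome, 285 and 227 (-0.33). Mrps35 was level at 245 and 245, and Mrps26 read 154 and 172 (0.16). Mrps36, outside the ribosome by its later assignment, read 324 and 196 (1.66-fold lower).

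Mrps9 was the exception among the members. Its bacterial counterpart reaches with its tail toward the transfer RNA at the peptidyl site. The brightest probe set read 106 and 202, 1.92-fold higher on the array labelled Nmyc9a. The next probe set had nearly the same mean signal but read 152.5 and 155 (0.03), and the dimmest of the 3 read 81.4 and 99.7 (0.29). Loess scaling changed which was brightest and put the gene at -0.02, so the higher value belongs to 1 probe set.

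Probe sets of a member often disagreed. In 34 members 2 or more probe sets were measured: 17 members were below 0 by each of them, 1 (Mrps9) was above 0 by each, and 16 had both signs. The pooled SD between probe sets of the members was 0.45, somewhat above the 0.40 of all genes. Among the 25 members at least 1.5-fold lower, 17 had 1 measured probe set. Of the 8 with more, all were below 0 in 2, Mrpl33 and Mrpl13, and the other 6 (Mrpl35, Mrpl17, Mrpl19, Mrpl51, Mrps5 and Mrps11) had at least 1 probe set above 0. Mrps5, at the entry path of the messenger RNA, read 142 and 85.5 (1.66-fold lower) by its brightest probe set. The values as deposited made another of its probe sets the brightest and gave 0.06. Mrpl48 (-0.42 to 0.49), Mrps15 (-0.38 to 0.70), Mrps2 (-0.38 to 0.01) and Mrps21 (-0.41 to 0.27) were below 0 by their brightest probe set and above it by their dimmest. Mrpl15 spanned the widest range, from -1.13 to 0.88 over 6 probe sets. Mrps24 ran from -1.45 to -0.30 and Mrpl49 from -0.93 to -0.15, below 0 throughout.

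Member probe sets with a mean signal under 100 stood nearer 0 than brighter ones. Of 129 measured member probe sets, 103 stood below 0. Among the 24 with a mean signal under 100, 12 were below 0 and the median was 0.00, while all named probe sets of that brightness had a median of 0.10. From 100 to 200, 35 of 48 were below 0, with a median of -0.47 against -0.01 for all named probe sets. From 200 to 400, 44 of 45 were below 0, with medians of -0.42 and -0.11. At 400 and above all 12 were below 0, with medians of -0.49 and -0.20. Probe sets whose names end in x, s or a, which can match more than 1 transcript, made up 53 of the 129 and had the same median as the rest to within 0.01 (-0.41 and -0.42).

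**Figure D3:**
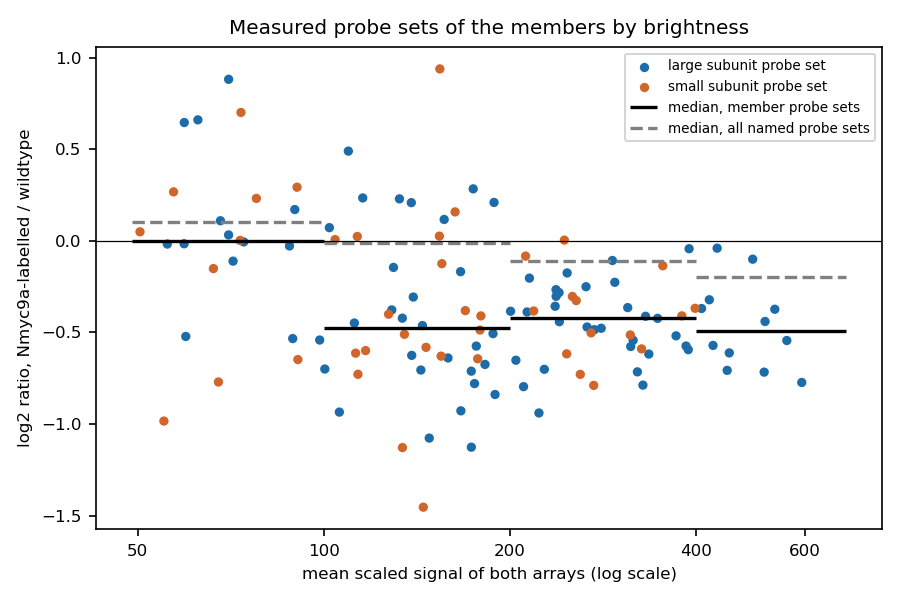
Log2 ratio (y axis) of each of the 129 measured member probe sets against its mean signal over both arrays (x axis, log scale), blue for large and orange for small subunit genes. Solid bars are medians of the member probe sets in 4 ranges of signal and dashed bars those of all named probe sets; the solid bars run from 0.00 under a signal of 100 to -0.49 at 400 and above, and lie below the dashed ones in each range.

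Members were scattered over 17 chromosomes, with 11 on chromosome 11 and 8 on chromosome 17. None lies on chromosome 12, which holds Mycn. The median was below 0 on each of the 17 chromosomes, from -0.72 over 5 measured members on chromosome 13 to -0.18 over 2 on chromosome 10.

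Some of these genes start back to back with a neighbour. Of the 67 members with a promoter window, 23 had a protein-coding gene that starts within 1000 bases upstream on the opposite strand. The share of all genes with such a neighbour was not counted. Mrpl46 and Mrps11, whose starts are 42 bases apart in the window printed above, form such a pair of members, at -0.93 and -0.61. The remaining 21 partners are outside the set, and in 14 of those pairs both genes were measured. In those 14 pairs all 14 members were below 0, with a median of -0.55, whereas 7 partners were below 0 and 7 above, with a median of 0.00. The member had the lower ratio in 10 of the 14, and in 12 of 14 after loess or quantile normalization, which put the median partner at -0.12 and -0.14. Raising the floor to the 60th percentile left 9 pairs. The member was lower in 6 of these, and the median partner was -0.18. Dropping the x, s and a probe sets left 10 pairs, and the member was lower in 6. The lower floor gave 15 of 19, and the remaining alternatives gave 10 or 11 of 14.

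The partners lay on both sides of 0. Ptcd2, which encodes a pentatricopeptide repeat protein of mitochondria and starts 108 bases from Mrps27, read 186 and 83.7 (-1.15). Ndufb5, of respiratory complex I, read 1333 and 771 beside Mrpl47 (-0.79), Tcp1, of the cytosolic chaperonin, 1399 and 885 beside Mrpl18 (-0.66), and Psma2, of the proteasome, 1117 and 715 beside Mrpl32 (-0.64). At the other end, Ncapd2, a condensin subunit, read 51.6 and 83.2 (0.69) beside Mrpl51. Hira, a histone chaperone, read 72.8 and 107 (0.56) beside Mrpl40, and Twnk, the helicase of mitochondrial DNA, 94.6 and 130.1 (0.46) beside Mrpl43. The 7 partners above 0 had wildtype signals of 51.6 to 247.5 and the 7 below 0 of 114.5 to 4045, and the part of signal strength in this split was not tested. The 22 measured members with such a partner had a median of -0.55 and the 44 without one -0.49.

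**Figure D4:**
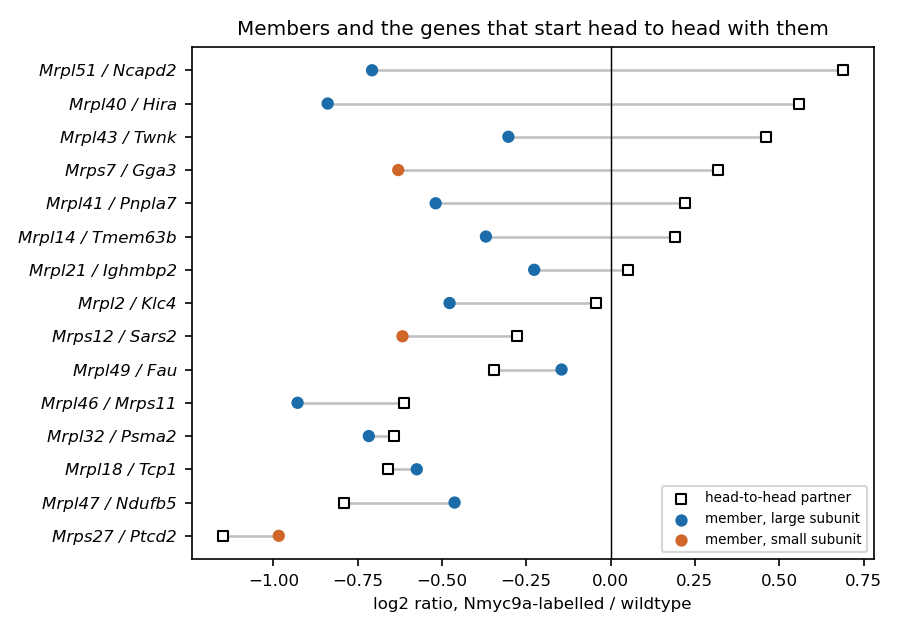
Log2 ratio (x axis) of each measured member (filled circles, blue large and orange small subunit) and of the gene that starts head to head with it (open squares), for 14 pairs with a gene outside the set and for Mrpl46 with Mrps11. Members of these pairs lie between -0.98 and -0.15, whereas partners run from -1.15 to 0.69.

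Mitoribosome subunits known by other names had ratios of both signs. Chchd1 of the small subunit read 647 and 352 (-0.88, 1.84-fold lower), and Gadd45gip1 of the large subunit 74.8 and 50.04 (-0.58). Dap3 read 147 and 171 (0.22) and Ptcd3 125 and 181 (0.54), both of the small subunit. Oxa1l, taken in the same list, is the inner membrane insertase that receives chains from the ribosome and not a subunit of it. It read 201 and 170.4 (-0.24).

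Factors that work with the ribosome were taken in 2 lists. All 13 measured mitochondrial translation factors were below 0, with a median of -0.44, although 1 (7.69%) passed the 1.5-fold size, where 9.7% of all measured genes did. That was Slirp, which with Lrpprc stabilises mitochondrial messenger RNA, at 311 and 178. The elongation factors Gfm1 (258 and 185), Tufm (143 and 104) and Tsfm (124.5 and 91.7) stood at -0.47, -0.46 and -0.44. Nearest 0 were Noa1, a GTPase that binds the ribosome (146 and 120.4, -0.27), and Gfm2, which recycles it (73.4 and 69.97, -0.07). Of 19 measured genes of ribosome assembly and ribosomal RNA modification, 2 were lower and 1 higher, with a median of -0.21 and 16 below 0. Tfb1m, which methylates the small subunit RNA, read 147 and 76.4 (-0.94). Ngdn, at the lowest value of that list, read 289 and 141 (-1.03). Its product is known as a nucleolar protein, so its place in a mitochondrial list is doubtful. The 2 lower genes and the median include it. Rbfa, a maturation factor of the small subunit, was at the other end with 285 and 482 (0.76), followed by the GTPase Mtg2 with 126 and 150.4 (0.26).

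Genes that copy and transcribe mitochondrial DNA, and those that charge its transfer RNAs, lay around 0. Of 15 measured genes of mitochondrial transcription and DNA maintenance, 7 were below 0 and the median was 0.08. Tfam, which packages the DNA and starts its transcription, read 240.0 and 152 (-0.66) and Hsd17b10 757 and 491 (-0.62), while Twnk stood at 0.46 and the helicase Supv3l1, at 152 and 237, at 0.64. Of 13 measured mitochondrial aminoacyl-tRNA synthetases, 6 were below 0 and the median was 0.04, with Yars2 at -0.74, Vars2 at -0.61 or lower, Fars2 at 0.39 and Ears2 at 0.69. Both medians were below 0 after loess (-0.10 and -0.06) or quantile normalization (-0.12 and -0.08). Among 12 factors that regulate nuclear genes of mitochondria, none was 1.5-fold lower and Nrf1 was higher, at 168 and 302 (0.85), with Creb1 at -0.46 and Gabpa at -0.35 lowest and Esrra at 0.34.

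The nuclear-encoded subunits of the respiratory chain and ATP synthase, whose partners the mitochondrial ribosome makes, had almost the same values. Of 75 measured genes, 27 were at least 1.5-fold lower, none was higher and 69 were below 0, with a median of -0.50. Cytochrome c (Cycs, 2134 and 1031) and Ndufa4 (1451 and 779) were lowest at -1.05 and -0.90, and Ndufa10 (0.27) and the dim Ndufb4 (51.9 and 76.7, 0.56) highest. The cytosolic ribosomal proteins were nearer 0, with a median of -0.24, although 44 of 46 were below 0. Of the 46, 4 (8.70%) were lower, where 9.7% of all measured genes were, and 1 (2.17%) higher, where 6.33% were. Rps4l (-1.06) and Rps27 (-0.84) were lowest, and Rpl39 (0.07) and Rpl12 (0.71) highest. The other lower genes were Rps27l (-0.73) and Rpl7l1 (-0.67), which like Rps4l are named as relatives of other ribosomal protein genes. Rps27 was dim for this list, at 202 and 113. These 3 sets differ in brightness, with median wildtype signals of 279 for the members, 1068 for the respiratory genes and 5093 for the cytosolic ribosome. Loess, which removes the trend of the ratio with signal, gave medians of -0.44, -0.31 and 0.02 in the same order, and quantile normalization -0.47, -0.32 and -0.08.

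**Figure D5:**
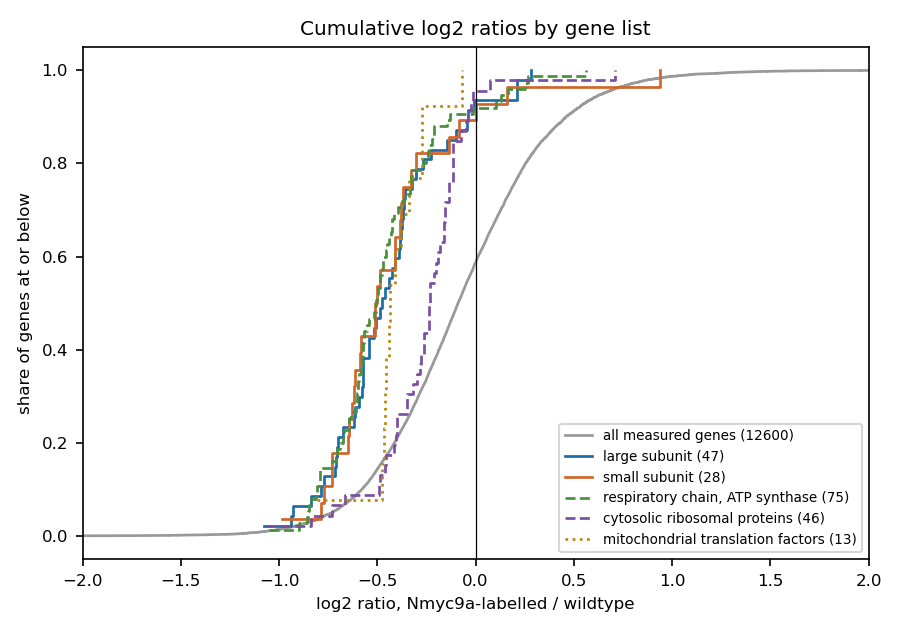
Share of genes (y axis) at or below each log2 ratio (x axis, array labelled Nmyc9a over wildtype) for all 12600 measured genes, the 47 large and 28 small subunit genes, 75 respiratory chain and ATP synthase genes, 46 cytosolic ribosomal protein genes and 13 mitochondrial translation factors. The curves of both subunits and of the respiratory genes run together, with medians of -0.48, -0.51 and -0.50, and that of the cytosolic ribosomal proteins lies between them and all genes.

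Counts moved more than medians when the processing was altered. The median of the members stayed between -0.49 and -0.43 under the 9 alternatives of scaling, floor and probe set choice. A pseudocount of 32 in place of the floor left 12 members at least 1.5-fold lower, where 6.62% of all measured genes were.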

How the data were processed

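Total RNA of pooled lungs was extracted with Trizol and an RNeasy kit, biotin-labelled and hybridised to Affymetrix arrays, per the labels. The deposited values are linear signal intensity per probe set (45101 on each array); the software and scaling that made them are not stated in the labels or file headers. After 64 control probe sets were set aside, the array labelled Nmyc9a was rescaled, a floor of 49.3 applied and the brightest probe set taken per gene. Of 34945 probe sets with 1 symbol in the platform annotation, 34741 matched RefSeq (GRCm38.p6) by Entrez identifier, 932 named several genes and 9160 none. Those with several symbols were used for no gene.

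As each group is 1 array, nothing was tested. Members and lists are described by counts at 1.5-fold and medians beside all measured genes, and were chosen with earlier results of these data known. Named were the 10 lowest, 6 highest and 3 brightest members, the Mrps18 family, Mrpl10, Mrpl11, Mrpl12, Mrps12, members with probe sets of both signs and, per list, the 2 highest and 2 lowest genes; other genes are named by role, after their values were seen. Promoter motifs and neighbours were searched in RefSeq windows, and a neighbour was taken from starts within 1000 bases. The alternatives were the values as deposited, quantile normalization, loess (span 0.3), floors at the 20th and 60th percentile or none, a pseudocount of 32, the median over probe sets per gene, no x, s or a probe sets, and sizes of 0.32 (log2) and 2-fold. Scripts ran in Python 3.11.15 with pandas 2.3.3 and statsmodels 0.14.6 and were tested on simulated data.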

Additional observations from a re-analysis of the deposited data

How the results depend on the processing

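With 1 array per group no library can be left out. No paired analysis was possible because each group has 1 sample. Under all 9 alternatives of scaling, floor and probe set choice the medians of all members, of the large and of the small subunit stayed below 0. The count of members at least 1.5-fold lower (25) ranged from 19 to 26, except for 12 with a pseudocount. The share of all measured genes lower by that size ranged from 7.83% to 11.6%, and was 6.62% with the pseudocount. A log2 size of 0.32 gave 57 lower, and the share of all measured genes at that size was not counted. The 2-fold size gave 1 lower and 0 higher, where 1.38% and 1.29% of all measured genes were. The count higher (1) was 0 after loess, 0 with the median over probe sets and 3 without x, s and a probe sets. Of all measured genes 5.35%, 5.84% and 7.65% were higher in these settings. Without x, s and a probe sets 62 members were measured and 52 were below 0, against 56.2% of all measured genes. Of 312 comparisons of 35 named members with an alternative, 296 moved by less than the SD between probe sets and 15 changed sign, among them 6 within that SD (Mrpl10 and Mrpl44 after loess and quantile normalization, Mrpl21 and Mrpl38). Without x, s and a probe sets Mrpl15 stood at 0.88, Mrpl35 at 0.66, Mrpl21 at 0.23, Mrpl51 at 0.17 and Mrpl17 at 0.12. The median of its probe sets put Mrpl51 at 0.17 and Mrps5 at 0.0127. Mrps5 stood at 0.0566 with the values as deposited, and Mrps9 at -0.0242 after loess. Mrps27 stood at -2.46 with the lower floor and -2.93 with none. Signals below the floor have no order, which limits the dimmer probe sets.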

Other observations

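A further 4 probe sets name a mitochondrial ribosomal protein gene together with another gene and entered no count. The brighter probe set shared by Mrpl30 and Gm6238 read 849.7 in wildtype lungs and 493 under the Nmyc9a label (log2 ratio -0.79), and the dimmer one read 58.4 and 49.4 (-0.24). The probe set shared by Mrpl53 and Ccdc142 read 399.6 and 312 (-0.36). The one shared by Mrps34 and Nme3 read 110.3 and 82.1 (-0.43), beside -0.33 for the probe set of Mrps34 alone. All 4 lay below 0, but which of the genes named gives each signal cannot be told from these arrays.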
